A study of Mus musculus with 6 samples.

Results

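The gasdermin genes of the mouse were described in RNA sequencing of the duodenum, the first stretch of the small intestine. The 6 genes are Gsdmc, Gsdmc2, Gsdmc3, Gsdmc4, Gsdma and Gsdmd, found by gene symbol among 23699 gene rows. They were selected on their FPKM in these mutant and control libraries, so those values are given as a description, and counts of calls among them are read as nothing more than that. FPKM, the deposited unit, is the number of sequenced fragments per kilobase of transcript and per 1e6 fragments. Of the 6 genes, 4 had at least 0.5 FPKM in at least 3 libraries and entered the comparison across genes. Gsdmc and Gsdma did not, and Gsdmc3 did so only through the 3 mutant libraries.

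The mutant group was 3 samples of Nkx2.2flox/flox; Villin-Cre/+ mice, and mutant 3 also carried the reporter allele Rosa26Tomato/+. The control group was 3 samples of Nkx2.2flox/+ mice, which carry 1 floxed allele and no Cre. All were 6 weeks old and of mixed background, and the tissue was the 2 cm of duodenum next to the stomach. Villin-Cre is active in the intestinal epithelium, where it deletes floxed alleles of Nkx2-2, a transcription factor of enteroendocrine cells, while muscle, immune and stromal cells of the tissue are not targeted. Whether each sample came from its own animal is not stated, and a p-value here covers the spread between these libraries.

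Gasdermins are proteins held inactive by their own C-terminal domain. When a protease cuts the linker between the domains, the N-terminal domain inserts into membranes and forms pores, through which interleukins leave the cell and which can end in lytic death, called pyroptosis. Gsdmd is cut by caspase-1 and caspase-11 downstream of inflammasomes. In the mouse intestine the Gsdmc genes are known as epithelial genes induced by the type 2 cytokines IL-4 and IL-13 through STAT6, and Gsdma is known mainly from skin and stomach.

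Depth was 21.0 to 26.3 M (1e6) fragments per library, worked out from the deposited values. Mutant 3 stood apart from mutants 1 and 2 in the genes described here, so the results for the gasdermin genes with values above the detection floor, and all counts of calls, are also given without it. Its summed level of stomach and Brunner's gland markers was 142 FPKM, against 4808 and 1097 FPKM in mutants 1 and 2 and 2709, 8511 and 3113 FPKM in controls. Its summed exocrine pancreas markers were 2238 FPKM, against 9908 and 6035 FPKM in mutants 1 and 2 and 16133, 15225 and 9939 FPKM in controls. Xist, the RNA of the silenced X chromosome of females, lay at 0.0177, 19.7 and 22.5 FPKM in mutants and 0.0894, 0.0229 and 0.0293 FPKM in controls, so mutants 2 and 3 differed from the other 4 libraries in sex. Nkx2-2 itself lay at 1.10, 0.736 and 0.221 FPKM in mutants 1 to 3, against 1.13, 1.32 and 0.779 FPKM in controls, and the groups overlapped. Summed enterocyte markers were low in both mutant 3 and control 3 (22250 and 18300 FPKM, against 36958 to 46919 FPKM in the other libraries). The part of the extra allele, the sampled tissue and sex in the values of mutant 3 was not tested. Since no control had high Xist, sex is also partly confounded with the groups, and its part in their differences was not tested.

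The 4 gasdermin C genes lie side by side on the minus strand of chromosome 15 (mm9) over 136 kb, and how alike they are decides how well reads can be told apart. Gsdmc spans bases 63607526 to 63640294, Gsdmc2 63655901 to 63676731, Gsdmc3 63689280 to 63710113 and Gsdmc4 63722820 to 63743852. In an alignment of the coding sequences from GENCODE, Gsdmc2 and Gsdmc3 were 97.1% identical, Gsdmc4 was 93.5% identical to each of these, and Gsdmc was 86.1 to 86.4% identical to the other C genes. Gsdmd, on the same chromosome at 75692769 to 75697834, shared about 45% of its coding bases with each C gene (45.1 to 45.3%). Gsdma, on chromosome 11 at 98525665 to 98539022, was 89.6% identical to Gsdma2 and 51.0% to Gsdmd.

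The stretch of 101 bases below, as long as 1 read, is shown because it is the same in all 4 C genes, so a read from it has no single origin. It lies in coding sequence on the minus strand at chr15:63608316-63608416, chr15:63656556-63656656, chr15:63689949-63690049 and chr15:63723482-63723582 (mm9) in Gsdmc, Gsdmc2, Gsdmc3 and Gsdmc4.
Shared by all 4: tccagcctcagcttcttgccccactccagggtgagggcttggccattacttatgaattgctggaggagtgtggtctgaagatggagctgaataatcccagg

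The next stretch is shown because, among 343 windows that lie within 1 exon and align without gaps, Gsdmc2, Gsdmc3 and Gsdmc4 differed there at the most positions. Capitals mark the 20 of 101 positions at which the 4 genes are not all equal. It lies on the minus strand at chr15:63610162-63610262, chr15:63658386-63658486, chr15:63691816-63691916 and chr15:63725333-63725433 (mm9) in the same order of genes. Gsdmc differed from Gsdmc4 at 8 of these positions, Gsdmc2 at 17 and Gsdmc3 at 12.
Gsdmc: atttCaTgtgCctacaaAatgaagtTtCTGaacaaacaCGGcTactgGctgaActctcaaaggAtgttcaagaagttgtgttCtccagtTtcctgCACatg
Gsdmc2: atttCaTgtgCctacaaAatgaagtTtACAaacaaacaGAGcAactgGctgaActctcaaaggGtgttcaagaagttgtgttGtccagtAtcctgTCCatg
Gsdmc3: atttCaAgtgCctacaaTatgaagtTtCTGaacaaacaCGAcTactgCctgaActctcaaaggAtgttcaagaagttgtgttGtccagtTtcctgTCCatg
Gsdmc4: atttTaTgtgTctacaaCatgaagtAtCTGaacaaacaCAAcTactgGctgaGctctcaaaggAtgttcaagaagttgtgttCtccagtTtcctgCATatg

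Of all read-length windows of the coding sequence, 10.3% of Gsdmc, 27.8% of Gsdmc2, 30.9% of Gsdmc3 and 27.3% of Gsdmc4 occurred letter for letter in another C gene. With up to 2 mismatches allowed, 16.4%, 66.1%, 63.4% and 59.0% of windows had such a match, in the same order. Gsdmd had 0 of 1364 windows in either count, and its nearest window differed at 32 positions. Gsdma shared 47 of 1241 windows with Gsdma2. The FPKM of a single C gene is therefore uncertain, since it includes reads that Cufflinks had to divide among copies, and the sum over the 4 genes depends less on that division.

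**Figure D1:**
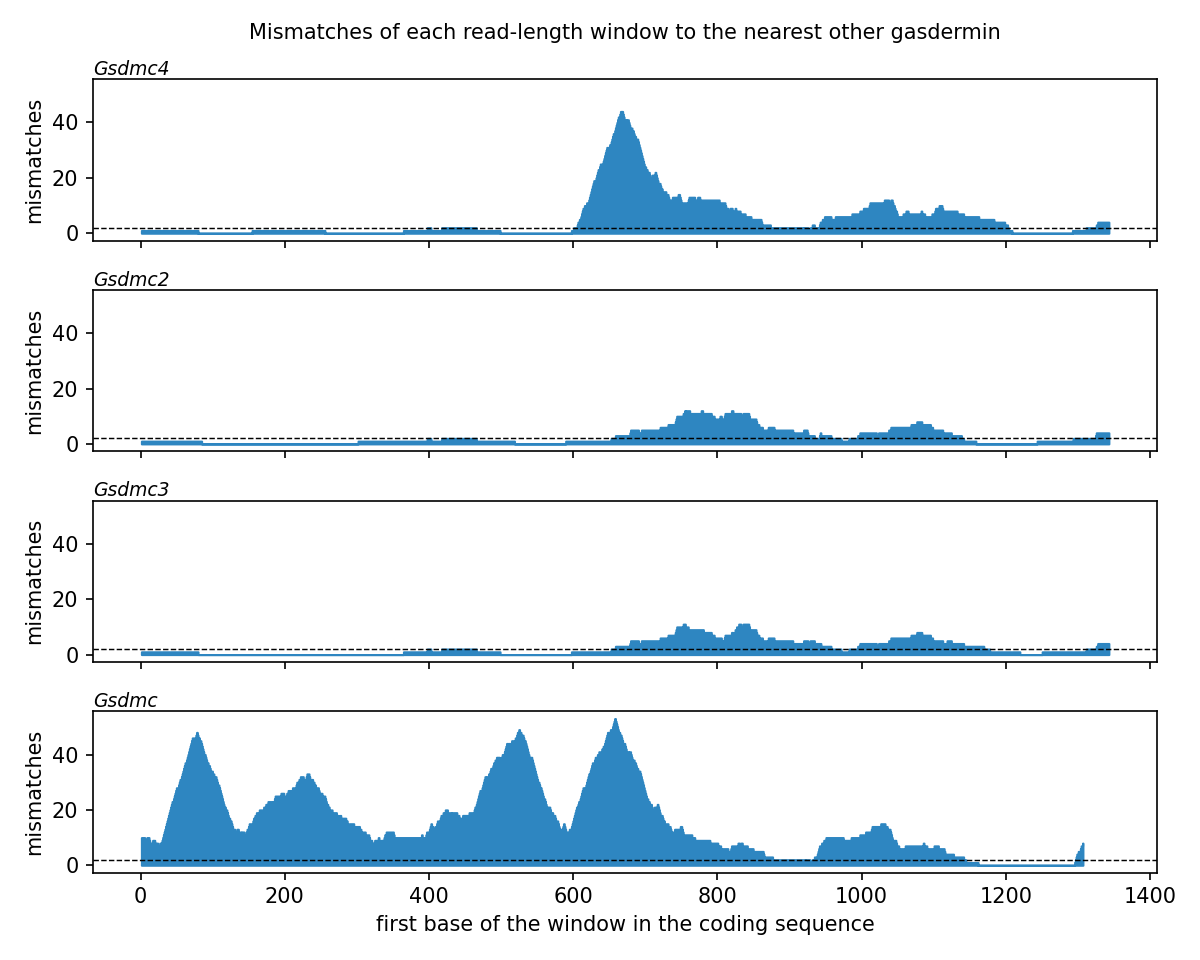
Each panel runs along the coding sequence of 1 gasdermin C gene (x axis, first base of a 101-base window) and plots the number of mismatches to the most similar window of another gasdermin (y axis, mismatches). The dashed line marks 2 mismatches. Windows at or under it make up 66.1% of Gsdmc2, 63.4% of Gsdmc3, 59.0% of Gsdmc4 and 16.4% of Gsdmc.

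The gasdermin C genes were high in mutants 1 and 2, lower in mutant 3 and lowest in the controls. Their summed level was 70.8, 77.5 and 7.21 FPKM in mutants 1 to 3, against 2.60, 0.810 and 3.23 FPKM in controls 1 to 3. The groups did not overlap. The mean was 51.8 ± 38.8 FPKM in mutants and 2.21 ± 1.26 FPKM in controls (SD, n = 3 each), a ratio of 23.4, and the log2 difference on the scale log2(FPKM + 0.5) was 3.82 ± 1.19 (SE). Without mutant 3 the ratio of means was 33.5 and the log2 difference 4.91. Mutant 3 alone lay 3.26-fold above the control mean, a log2 difference of 1.64. The level of the sum therefore differed more between mutant 3 and the other mutants than between mutant 3 and the highest control.

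Gsdmc4 had the highest level of the C genes in every library. It lay at 41.8, 50.2 and 3.92 FPKM in mutants, against 1.55, 0.474 and 1.92 FPKM in controls. Mutant 3 was above every control, and the interval that the files give around its value (3.29 to 4.55 FPKM) did not reach that of control 3 (1.48 to 2.36 FPKM). These intervals cover counting error of single libraries only and are no test between the groups. The ratio of means was 24.4 and the log2 difference 3.65 ± 1.20 (SE), and 35.1 and 4.78 without mutant 3. In rank, Gsdmc4 stood above 90.3% and 91.7% of all gene rows in mutants 1 and 2 and above 60.0% in mutant 3, and above 42.3 to 52.9% in controls.

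Gsdmc2 followed at 20.2, 18.0 and 2.32 FPKM in mutants, against 0.588, 0.160 and 1.05 FPKM in controls. The groups did not overlap, and the interval of mutant 3 (1.84 to 2.81 FPKM) lay above that of control 3 (0.725 to 1.38 FPKM). Its ratio of means was 22.5 and its log2 difference 3.31 ± 1.00 (SE), and 31.8 and 4.24 without mutant 3. Cufflinks divided it between transcripts of 2077 and 2312 bases, and the shorter one held 74.3%, 70.3% and 55.5% of the level in mutants, against 75.9%, 0.0144% and 70.6% in controls. The value of control 2 rests on 7.34 fragments in all, so its division carries little weight.

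Gsdmc3 lay at 7.10, 7.71 and 0.774 FPKM in mutants, against 0.414, 0.139 and 0.185 FPKM in controls. The groups did not overlap, but the interval of mutant 3 (0.494 to 1.05 FPKM) overlapped that of control 1 (0.229 to 0.599 FPKM). Its ratio of means was 21.1 and its log2 difference 2.54 ± 0.89 (SE), and 30.1 and 3.42 without mutant 3.

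Gsdmc had the lowest level of the cluster in every library, at 1.68, 1.60 and 0.195 FPKM in mutants, against 0.0487, 0.0376 and 0.0795 FPKM in controls. These correspond to 77.5, 82.8 and 8.85 fragments in mutants, against 2.78, 1.78 and 3.70 fragments in controls. The groups did not overlap, the ratio of means was 20.9, and it was 29.7 without mutant 3. The interval of mutant 3 (0.0556 to 0.334 FPKM) overlapped that of control 3 (0 to 0.176 FPKM). The log2 difference was 1.41 ± 0.54 (SE), and with a pseudocount of 0.1 in place of 0.5 it was 2.64, since the added 0.5 exceeds every control value.

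**Figure D2:**
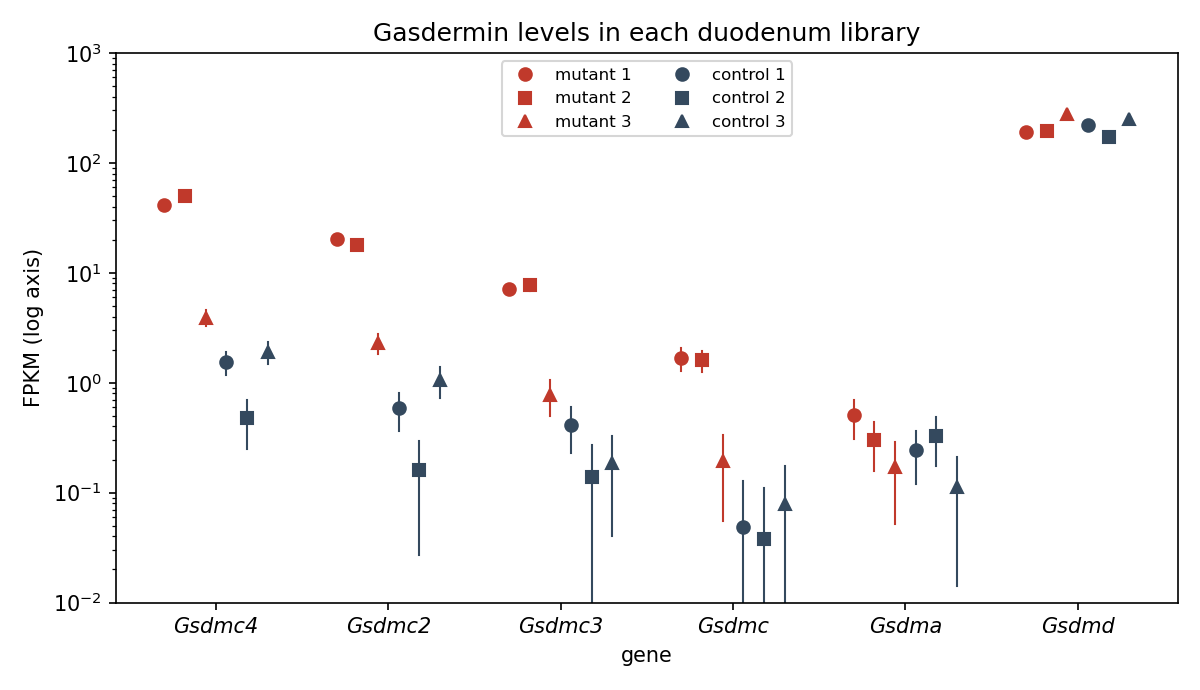
FPKM of the 6 gasdermin genes (log y axis) in each library, mutants in red left of controls in dark blue, with symbols for libraries 1, 2 and 3. Vertical lines are the intervals deposited with each value, cut at the bottom of the axis where they reach 0. The C genes are high in mutants 1 and 2 and intermediate in mutant 3, while the groups overlap in Gsdma and Gsdmd.

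The make-up of the cluster varied less than its level. Gsdmc4 held 59.1%, 64.8% and 54.4% of the summed FPKM in mutants, against 59.5%, 58.5% and 59.3% in controls. Gsdmc2 held 28.5%, 23.2% and 32.2% in mutants, against 22.7%, 19.8% and 32.6% in controls. Gsdmc3 held 10.0%, 9.95% and 10.7% in mutants, against 15.96%, 17.1% and 5.73% in controls, so the mutant shares lay inside the range of the controls. Gsdmc held 2.07 to 2.70% in mutants and 1.88 to 4.63% in controls. The ratios of means of the 4 genes also lay close together, from 20.9 to 24.4. Reads that fit several of the 4 genes were divided by Cufflinks, and the part of that division in the shares was not tested. Fragment numbers worked out from the files were within 0.1 of a whole number in 0 of 6 libraries for Gsdmc, 1 for Gsdmc3 and 3 for Gsdmc4, but in 6 of 6 for Gsdma and Gsdmd.

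**Figure D3:**
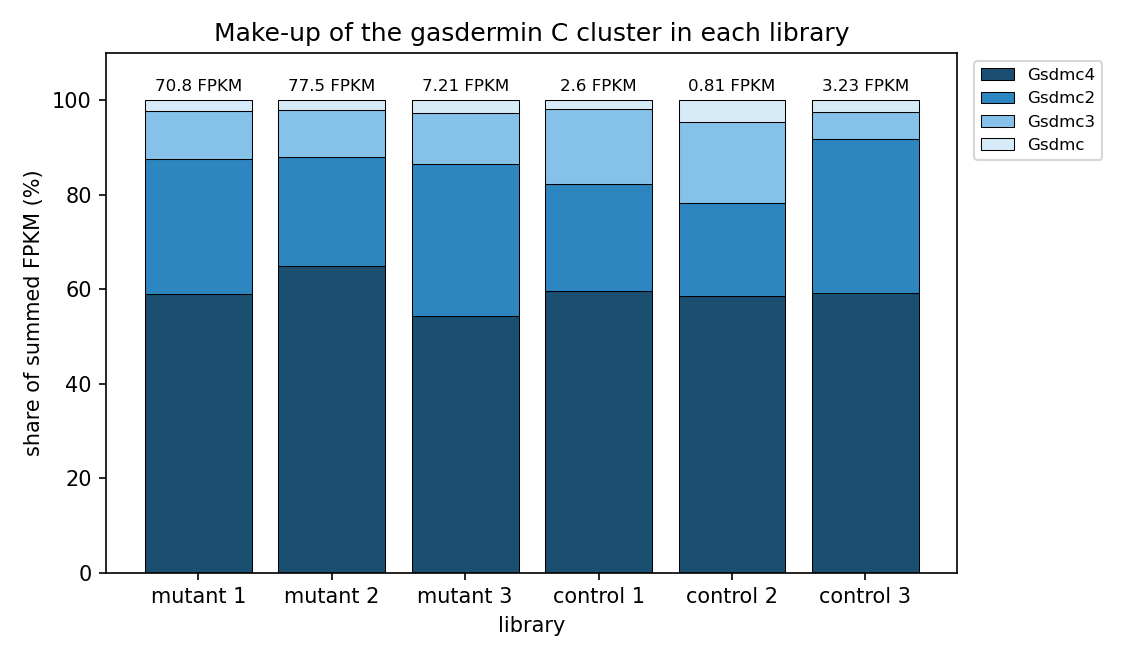
Stacked bars give the share of each gasdermin C gene in their summed FPKM (y axis, percent) for each library, mutants left of controls, with the sum printed above the bar. Gsdmc4 makes up 54.4 to 64.8% of every bar although the sum ranges from 0.810 to 77.5 FPKM.

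The authors' deposited table gave folds of similar size for 3 of the 4 genes. In the authors' deposited table Gsdmc2 had mean normalized counts of 405 in mutants and 14.7 in controls, a fold of 27.6. Gsdmc4 had 1172 in mutants and 47.8 in controls in the authors' deposited table, a fold of 24.5, and Gsdmc3 had 99.8 and 4.72, a fold of 21.2. Gsdmc was listed at 0 in both groups of the authors' deposited table, although the gene files give it up to 1.68 FPKM in mutants.

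The tested genes beside the cluster overlapped between the groups. Fam49b, next to the cluster, lay at 16.2, 15.1 and 14.7 FPKM in mutants, against 13.3, 13.0 and 15.4 FPKM in controls, and Asap1, the next gene, at 7.01, 5.18 and 4.88 FPKM in mutants, against 6.16, 6.15 and 4.94 FPKM in controls. On the other side LOC432958 was listed at 0 in every library, and the long noncoding RNA Pvt1 had 0.147 to 0.233 FPKM in mutants and 0.173 to 0.342 FPKM in controls. Inside the cluster, 1700065I16Rik and Gsdmcl1 were listed at 0 in every library. Gsdmcl-ps, a pseudogene beside Gsdmc4, had 2, 3 and 1 fragments in mutants, against 0 fragments in each control.

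**Figure D4:**
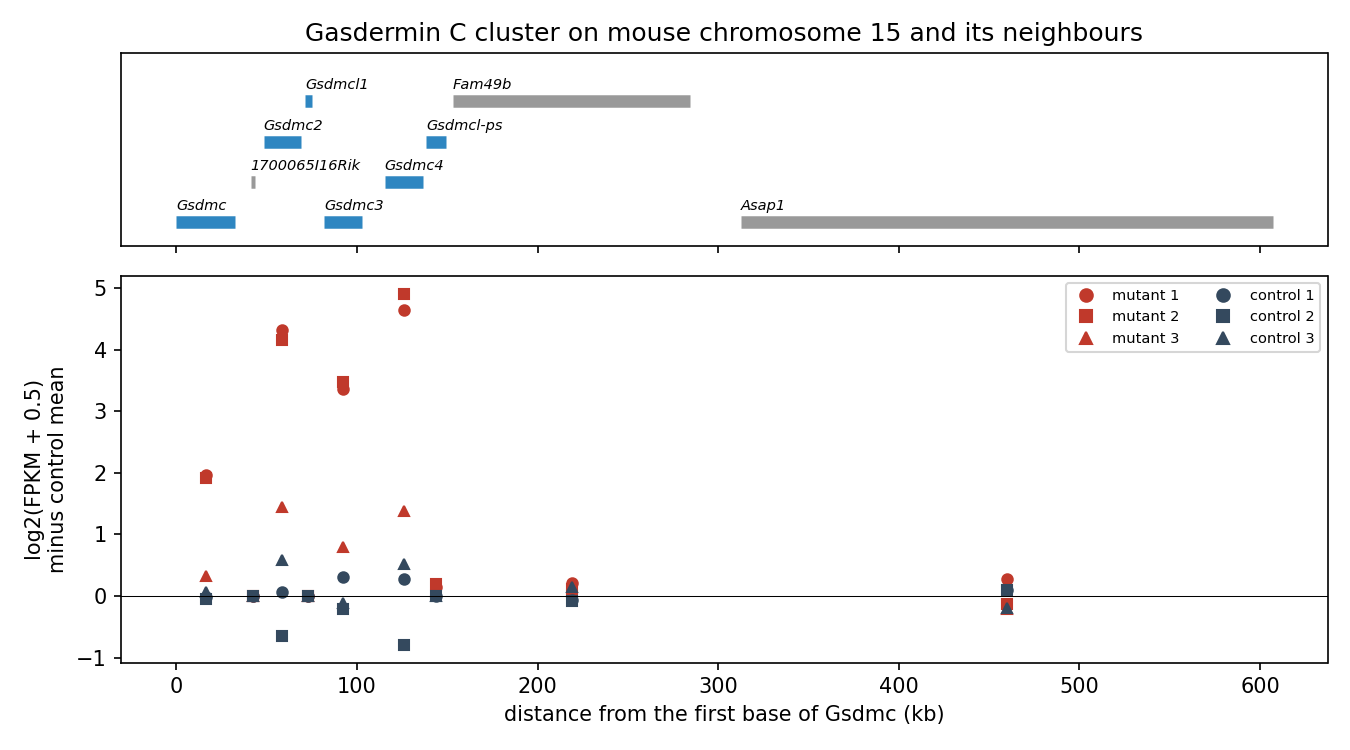
The upper panel draws the genes of the gasdermin C cluster (blue) and of its neighbours (grey) to scale, as distance in kb from the first base of Gsdmc (x axis). The lower panel plots, above the middle of each gene, log2(FPKM + 0.5) of each library minus the control mean (y axis), with mutants in red and controls in dark blue. Gsdmc, Gsdmc2, Gsdmc3 and Gsdmc4 lie far above 0 in mutants 1 and 2, and Fam49b and Asap1 lie near 0 in all libraries.

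Gsdmd was by far the most abundant gasdermin. It lay at 192, 195 and 281 FPKM in mutants, against 222, 171 and 252 FPKM in controls. The groups overlapped, with the highest value in mutant 3. The mean was 223 ± 50.8 FPKM in mutants and 215 ± 40.7 FPKM in controls (SD, n = 3 each), a ratio of 1.04, and the log2 difference was 0.05 ± 0.24 (SE). Without mutant 3 the log2 difference was -0.13. Each value rests on 5840 to 9230 fragments, and Gsdmd stood above 97.6 to 98.6% of all gene rows in every library. Even in mutants 1 and 2, the summed C genes had lower FPKM than Gsdmd. Its neighbours Zc3h3 and Eef1d overlapped between the groups, and Naprt1, a nicotinate phosphoribosyltransferase, lay at 109, 104 and 100.54 FPKM in mutants, against 100.05, 95.3 and 96.8 FPKM in controls, without overlap. In the authors' deposited table Gsdmd had a fold of 1.04.

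Gsdma was near the detection floor, at 0.504, 0.300 and 0.171 FPKM in mutants, against 0.242, 0.328 and 0.112 FPKM in controls. The groups overlapped, and the values rest on 6.05 to 27 fragments. The log2 difference was 0.17 ± 0.21 (SE), 0.31 without mutant 3 and -0.10 for mutant 3 alone. Its paralogue Gsdma2 lay at 0.194, 0.404 and 0.198 FPKM in mutants, against 0.549, 0.977 and 0.194 FPKM in controls, and Gsdma3 was listed at 0 in every library. Of the remaining gasdermins, Dfna5 (gasdermin E, cut by caspase-3) lay at 1.81, 2.01 and 1.99 FPKM in mutants, against 3.05, 2.39 and 1.72 FPKM in controls, with overlap and a log2 difference of -0.22, and of -0.24 without mutant 3. Dfnb59 (pejvakin, a gasdermin of the inner ear) had 1 fragment in mutant 3 and 0 in the other libraries. Gsdma's neighbours Ormdl3 and Psmd3 overlapped between groups, and Gm12 and Csf3 were listed at or near 0.

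Few genes were called across the whole table. Limma, a linear model with a moderated variance, called 3 of 13596 genes (0.0221%) at an adjusted p of 0.05, 1 higher and 2 lower, with 467 at an unadjusted p under 0.05. Of the 4 gasdermins in the fit, 0 were called by limma. Among all tested genes, 550 (4.05%) had every mutant above every control, as did 3 of the 4 tested gasdermins, which were chosen with this contrast known. Gsdmc3 is among these 3, and its lack of overlap was fixed in advance, since it passed the filter only through the 3 mutant libraries. With the replicate number as a block, limma called 22 genes (0.162%) and again 0 gasdermins. Without mutant 3, limma called 51 of 13453 genes as higher (0.379%), and these included Gsdmc2 and Gsdmc4, while Gsdmc3 no longer reached 0.5 FPKM in 3 libraries. Because the gasdermins were selected on these libraries, and mutant 3 is the mutant in which the C genes were lowest, none of these counts is a test of them. By size of the log2 difference alone, Gsdmc4 ranked 5, Gsdmc2 7 and Gsdmc3 10 of 13596 genes, and Gsdmd ranked 4443.

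The genes around the gasdermins were read from lists made for their roles. Upstream of Gsdmd, 12 genes of inflammasome sensors and their adaptor were tested, with 0 called by limma (0 at an unadjusted p under 0.05) and a median log2 change of 0.07, against -0.02 over all genes tested. Pycard, the adaptor ASC, lay at 88.3, 85.6 and 171 FPKM in mutants, against 115, 115 and 157 FPKM in controls. Nlrp6, an inflammasome sensor of the gut epithelium, lay at 55.7, 63.8 and 78.5 FPKM in mutants, against 75.8, 75.0 and 76.4 FPKM in controls. The groups overlapped in both genes.

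The proteases that can cut gasdermins gave 0 calls by limma among 10 tested (0 at an unadjusted p under 0.05; median 0.04). Casp6, an executioner caspase, lay at 188, 229 and 213 FPKM in mutants, against 224, 188 and 202 FPKM in controls. Ctsb, a lysosomal cathepsin, lay at 170, 185 and 198 FPKM in mutants, against 161, 165 and 185 FPKM in controls. Downstream, 0 of 17 genes for released cytokines and regulators of pyroptosis were called (1 at an unadjusted p under 0.05; median 0.08). Il18, a cytokine that leaves through gasdermin pores, lay at 152, 138 and 188 FPKM in mutants, against 106, 129 and 153 FPKM in controls. Chmp4b, of the ESCRT machinery that mends membrane pores, lay at 170, 171 and 204 FPKM in mutants, against 163, 143 and 203 FPKM in controls. Of 14 genes of necroptosis and apoptosis, 0 were called (0 at an unadjusted p under 0.05; median 0.02). Cycs, cytochrome c, had 156, 193 and 157 FPKM in mutants, against 126, 116 and 169 FPKM in controls, and Bak1, a mitochondrial pore protein, 104, 114 and 139 FPKM, against 122, 106 and 135 FPKM in controls. Every pair of groups named in this paragraph overlapped. Without mutant 3, limma again called 0 genes in the inflammasome, protease, pyroptosis and cell death lists.

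The IL-4 and IL-13 pathway, which is known to induce the C genes, was read at its ligands, receptors and signal carriers. Of 12 tested genes 0 were called by limma (1 at an unadjusted p under 0.05), 8 had a log2 change above 0, and the median was 0.06. The ligands were too low to be tested. Il4 lay at 0.502, 0.213 and 0.364 FPKM in mutants, against 0.0968, 0.117 and 0 FPKM in controls, and Il13 at 0.189, 0.253 and 0 FPKM in mutants, against 0, 0 and 0.0937 FPKM in controls. Il13ra1, a receptor chain of IL-13, lay at 55.0, 62.2 and 58.1 FPKM in mutants, against 56.8, 53.9 and 61.1 FPKM in controls. Stat6, the transcription factor of the pathway, lay at 44.6, 46.5 and 43.9 FPKM in mutants, against 41.9, 46.0 and 39.7 FPKM in controls. Receptor and Stat6 values overlapped between the groups. Tslp, an epithelial alarmin that was chosen after its values were seen, lay at 1.02, 1.27 and 0.573 FPKM in mutants, against 0.257, 0.311 and 0.413 FPKM in controls, without overlap. It was the 1 pathway gene at an unadjusted p under 0.05 by limma, and it passed the filter only through the 3 mutant libraries.

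Genes known as epithelial or mucosal targets of IL-4 and IL-13 mostly lay higher in mutants, though none passed the threshold with all libraries. Of 16 tested, 13 had a log2 change above 0 and the median was 0.98, beside 44.2% above 0 and a median of -0.02 over all genes. Limma called 0 of these 16 (7 at an unadjusted p under 0.05, beside 467 of 13596 over all genes). Without mutant 3 it called 2, beside 63 of 13453 over all genes. The summed level of the list was lowest of the mutants in mutant 3 (3118 FPKM, against 6631 and 5507 FPKM in mutants 1 and 2). Calls made without mutant 3 are therefore no test of the list. The list was chosen with earlier results of these data known. The genes fell into patterns that were picked out after their values were seen, except for Itln1, Ang4 and Arg1.

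Pla2g4c, a cytosolic phospholipase, had the pattern of the C genes, at 114, 94.6 and 2.21 FPKM in mutants, against 1.78, 1.34 and 1.54 FPKM in controls. Its limma adjusted p was 0.999 with all libraries, 1.3e-05 without mutant 3 and at most 0.99997 with another library left out. Ang4, an antimicrobial protein of Paneth and goblet cells, lay at 2656, 1720 and 379 FPKM in mutants, against 285, 199 and 233 FPKM in controls, with a limma adjusted p of 0.999, and from 0.0044 (without mutant 3) to 0.99997 with 1 library left out. In both genes mutant 3 was above every control but closer to them than to mutants 1 and 2. Calls without mutant 3 are therefore no test of these genes.

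Retnlb, the goblet cell protein RELM-beta, was high in all 3 mutants instead, at 619, 792 and 478 FPKM, against 2.27, 1.42 and 20.9 FPKM in controls. Its log2 change was 6.99 ± 1.00 (SE), with a limma adjusted p of 0.512, and from 0.000446 (without control 3) to 0.99997 with 1 library left out (0.325 without mutant 3). Mcpt1, a mucosal mast cell protease, was likewise above controls in mutant 3, at 11.5, 24.8 and 13.2 FPKM in mutants, against 3.82, 4.83 and 6.39 FPKM in controls (limma adjusted p = 0.767, and 0.263 without mutant 3). In mutant 3 Retnlb thus lay 22.9-fold above the highest control, and the summed C genes lay 2.23-fold above theirs.

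Itln1, an intelectin, overlapped between groups at 1681, 1493 and 935 FPKM in mutants, against 1205, 1028 and 827 FPKM in controls. In the authors' deposited table the folds were 46.9 for Pla2g4c, 6.85 for Ang4 and 81.1 for Retnlb.

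**Figure D5:**
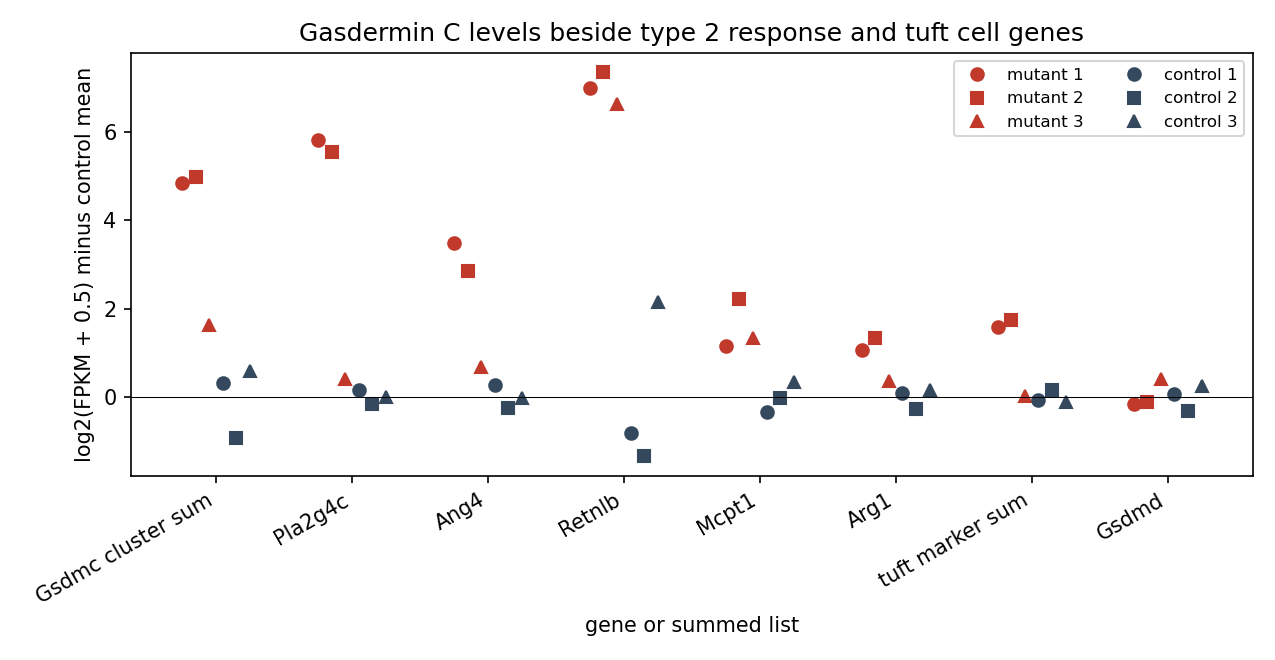
For the summed gasdermin C genes, 5 genes of the type 2 response, the summed tuft cell markers and Gsdmd, points give log2(FPKM + 0.5) minus the control mean (y axis) for each library, mutants in red left of controls in dark blue. In mutant 3 the C genes lie at 1.64, Pla2g4c at 0.40, the tuft markers at 0.02 and Retnlb at 6.63.

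The tested markers of tuft cells, and of mast cells and eosinophils, lay higher in mutants on average. All 11 tested tuft cell markers had a log2 change above 0, with a median of 1.10, and tuft cells are the chemosensory cells that start type 2 responses in the gut. Limma called 0 of the 11 (2 at an unadjusted p under 0.05, beside 467 of 13596 over all genes). Without mutant 3 it called 7, beside 63 of 13453 genes over the whole table. The summed level of the tuft markers over 16 genes was 135, 151 and 45.4 FPKM in mutants, against 42.8, 50.2 and 41.3 FPKM in controls, so mutant 3 lay inside the range of the controls. Leaving out mutant 3 therefore favours calls of tuft genes, Il17rb included, and such calls are no test of them. Of the 16 genes 0 were listed at 0 in every library. Alox5ap, the 5-lipoxygenase activating protein, lay at 40.2, 45.3 and 9.56 FPKM in mutants, against 7.40, 12.0 and 9.05 FPKM in controls, and Ptgs1, a cyclooxygenase, at 14.01, 14.3 and 11.1 FPKM in mutants, against 11.8, 13.2 and 12.0 FPKM in controls. Il17rb, the receptor of the tuft cell cytokine IL-25, was the call that the pathway list gained without mutant 3 (limma adjusted p = 0.0088, and 0.973 to 0.99997 without another library), and was chosen after its values were seen. It lay at 4.62, 5.06 and 1.16 FPKM in mutants, against 1.03, 1.26 and 1.39 FPKM in controls.

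All 7 tested markers of mast cells and eosinophils also had a log2 change above 0, with a median of 0.76. Limma called 0 of them with or without mutant 3. At an unadjusted p under 0.05 by limma there were 3, beside 467 of 13596 over all genes. The summed level of the list was 41.8, 62.3 and 27.1 FPKM in mutants, against 14.1, 17.9 and 18.3 FPKM in controls, without overlap. Siglec5 lay at 13.9, 15.6 and 1.37 FPKM in mutants, against 1.93, 2.95 and 0.938 FPKM in controls, with overlap through mutant 3. In mutant 3 Siglec5 lay inside the range of the controls, as the summed tuft markers did and Mcpt1 did not. Which cells the level of Siglec5 came from was not tested. Epx and Fcer1a of this list were too low to be tested. Epx lay at 0 FPKM in each mutant, against 0, 0 and 0.0376 FPKM in controls. Fcer1a lay at 0.806, 1.34 and 0.293 FPKM in mutants, against 0.0934, 0.225 and 0.343 FPKM in controls. In whole tissue, more cells of a type and more RNA per cell cannot be told apart, and the part of tuft, mast and eosinophil cells in the level of the C genes was not tested.

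The general make-up of the epithelium differed less. The summed level of 8 epithelial markers was 6064, 5984 and 4981 FPKM in mutants, against 5956, 5729 and 5025 FPKM in controls, and their median log2 change was 0.02. This list holds Krt8 and Krt20, keratins of the epithelium, and each overlapped between groups. Medians were 0.20 for 10 enterocyte genes such as Apoa1 and Apoa4, -0.02 for 10 goblet genes such as Zg16 and Tff3, 0.34 for 8 Paneth genes such as Defa24 and Defa17, and -0.04 for 7 stem and crypt genes such as Olfm4 and Smoc2. They were 0.06 for 8 leukocyte genes (Lyz2, Csf1r), 0.25 for 4 genes of innate type 2 lymphocytes (Areg, Il1rl1) and -0.07 for 6 smooth muscle genes (Acta2, Tagln). Of the 4 lymphocyte genes, Gata3 passed the filter only through the 3 mutant libraries. Its log2 change above 0 was thus fixed in advance, and the median of the 4 depends on it. Limma called 0 genes in these 8 lists. At an unadjusted p under 0.05 by limma there were 3 goblet, 1 Paneth, 1 enterocyte and 0 other genes, beside 467 of 13596 over all genes. Without mutant 3 limma called 1 gene in the Paneth list (Ang4) and 0 in the other lists. The goblet list holds Retnlb, with a log2 change of 6.99 that its median does not show. Some lists share genes and are not separate evidence. Retnlb, Ang4 and Itln1, and Mcpt1 and Mcpt2 of the mast cell list, are also among the targets of IL-4 and IL-13.

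In 4 lists the median log2 change was -1.05 or lower. The median was -2.43 for 8 stomach and Brunner's gland genes (Tff2, Gkn3), -1.30 for 11 exocrine pancreas rows (Ctrb1, Cela2a) and -1.05 for Sprr1a, the 1 squamous gene tested, with 0 calls by limma in each, also without mutant 3, and 1, 3 and 1 at an unadjusted p under 0.05. Of 10 enteroendocrine genes 9 had a log2 change under 0, the median was -1.66 and 1 was called by limma. At an unadjusted p under 0.05 by limma there were 10 of these 10, beside 467 of 13596 over all genes. Ghrl, the hormone ghrelin, rose to 1320, 1360 and 644 FPKM in mutants, against 82.4, 70.8 and 58.6 FPKM in controls (log2 change 3.90 ± 0.30 SE, limma adjusted p = 0.0276). Its adjusted p by limma was 0.110 without mutant 2, 0.186 without control 1, 0.577 without control 2, 0.131 without control 3, 0.0632 without a filter on low values and 0.0538 with TPM scaling. With the replicate block 5 enteroendocrine genes were called, and 1 without mutant 3.

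The genes whose pattern over the 6 libraries was most like the summed C genes were found by Pearson's r on log2(FPKM + 0.5), as a description. All points share the same 6 libraries, and 185 of 13596 genes (1.36%) had an r above 0.9. The ranking left out the 6 named gasdermin genes, predicted models, clone names, small RNAs and every symbol starting with Rn. Genes left out may therefore have a higher or lower r than those named. The highest of the rest were Arg1 (r = 0.993), Dolk (0.990), Pdzd2 (0.984), Lancl1 (0.981), Gadd45g (0.981), Prdx5 (0.981), Ntan1 (0.979) and Xpnpep2 (0.979). Arg1, arginase 1, is a gene of the type 2 response and lay at 2.23, 2.75 and 1.17 FPKM in mutants, against 0.872, 0.579 and 0.957 FPKM in controls. Prdx5, a peroxiredoxin, lay at 926, 913 and 796 FPKM in mutants, against 679, 664 and 702 FPKM in controls. In both, as in the C genes, mutants 1 and 2 were highest, mutant 3 was next and control 2 was lowest. The lowest r were those of Pirt (-0.998), Sgol1 (-0.991) and Gadd45gip1 (-0.989). Gsdmd had an r of -0.14 and Dfna5 of -0.48, while Ang4 had 0.974, Pla2g4c 0.960, Trpm5, a tuft cell channel, 0.954 and Retnlb 0.880.

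One promoter of the family was at hand, that of Gsdmc3 in a RefSeq table of GRCm38.p6, which matched 1 of the 6 genes. The 250 bases before its start (chr15:63878559-63878808, minus strand) are shown because the C genes differed together between the groups. Capitals mark a TATA-like run.
Gsdmc3 promoter: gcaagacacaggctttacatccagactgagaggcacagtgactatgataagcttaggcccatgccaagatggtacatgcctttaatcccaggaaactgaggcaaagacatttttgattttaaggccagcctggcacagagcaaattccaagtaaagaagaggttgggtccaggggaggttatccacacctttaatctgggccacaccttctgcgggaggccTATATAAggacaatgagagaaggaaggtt
The run TATATAA begins 29 bases before the start, and 3.24% of 32851 promoters of the table held it on either strand. This motif was chosen after the sequence was seen. The search covered 300 bases, up to 50 past the start, on both strands. It found no match to the STAT motif TTCNNNGAA (in 8.30% of promoters), the STAT6 motif TTCNNNNGAA (6.95%), TATAAA (13.6%), the NKX2 motif TNAAGTG (11.5%), the GATA form AGATAA (11.2%) or the E-box CACGTG (7.15%). Other GATA forms were not searched, and the printed bases hold TGATAA. The letters searched without a match are not in this window, which says nothing about binding elsewhere.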

How the data were processed

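Per the labels, libraries were made from total RNA of RIN above 8 with a TruSeq RNA kit. The tools named in the submitters' processing notes are DESeq, Cufflinks, TopHat and CASAVA 1.8.2, with the build mm9; whether strand was used is not given in the sources used here. The authors deposited FPKM per gene and isoform with Cufflinks intervals and a coverage signal, per the file headers. The authors' deposited table holds mean normalized counts per group (a signal), their ratio as a fold, its log2 and a p-value. Depth was worked out here from those intervals, on the reading that counting error sets them. Read length (101 bases) came from the coverage signal, FPKM and that depth. Fragments per gene came from FPKM, that depth and the transcript length, less a length fitted with the depth.

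After a filter that kept 13596 of 23699 gene rows (0.5 FPKM or more in 3 or more of 6 libraries), limma 3.58.1 in R 4.3.3 compared the groups on log2(FPKM + 0.5) (trend and robust prior, statmod 1.5.0), two-sided, with Benjamini-Hochberg adjustment over all genes and a threshold of 0.05. A fold on this scale understates changes of low genes. Limma was tested on simulated data. The simulated libraries were independent and each change was the same in all 3 mutants, so that test does not cover a mutant that stands apart. Coding sequences (GENCODE vM1) were aligned with MAFFT 7.526, and Python 3.11.15, pandas 2.3.3, numpy 2.4.6 and matplotlib 3.10.9 did the rest.

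The gasdermins, the 14 cell type lists, the 6 pathway lists and the rules were chosen with earlier results of these data known. Genes named are all gasdermins, neighbours of the cluster, Gsdmd and Gsdma, and 8 genes of highest and 3 of lowest r among those ranked. Up to 4 called or else 2 most abundant genes per list, and Nkx2-2, are named too. Retnlb, Pla2g4c, Mcpt1, Il4, Il13, Tslp, Il17rb, Trpm5 and Xist were added after their values were seen. Deviations from group means correlated at 0.26, 0.25 and 0.58 within same-numbered pairs of libraries, and the numbers were taken to pair them. Mutant 2 and control 1 correlated at 0.30 and mutant 1 and control 2 at 0.19, so these values do not pair libraries 1 and 2. The labels do not state what the replicate numbers mark. The block is therefore an assumption, and the calls made with it rest on that. Alternatives were TPM and quantile scaling, a minimum of 1 FPKM, no filter, pseudocounts of 0.1 and 1, the replicate block and leaving out each library.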

Additional observations from a re-analysis of the deposited data

How the results depend on the processing

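Over 371 recomputed values, 348 stayed within the spread between replicates, or, for counts, within 1.5 times, and 23 moved. Many of the 348 could hardly move, so their number is no measure of robustness. Many were list counts of 0 that stayed 0. A log2 difference is also the same by design with the replicate block or with another filter. For the summed C genes the spread allowed was an SD of 1.45 on the log2 scale, widened by mutant 3. Of the 348, 2 had the other sign: the log2 difference of Gsdmd, 0.05 with all libraries, was -0.13 without mutant 3 and -0.11 without control 2. The summed gasdermin C level stayed higher in mutants under every alternative tried, with a log2 difference of 3.24 to 4.91 when 1 library was left out. Limma's count over all genes was 3, and 1 without a filter on low values, 22 with the replicate block and 0 to 63 with 1 library left out (63 without mutant 3, 9 without mutant 1, 0 without control 1 or 2). Gasdermins called numbered 0 to 2 with 1 library left out, 2 of them without mutant 3, and the block gave 0. With 1 library left out, calls ran from 0 to 7 among tuft markers, 0 to 2 among epithelial targets of IL-4 and IL-13, and 0 to 1 in the IL-4 and IL-13 pathway, among goblet and among Paneth genes. Enteroendocrine calls were 0 without a filter, 0 with TPM scaling, 5 with the block and 0 to 4 with 1 library left out (4 without mutant 1). The block changed no call among the gasdermins. The causes were not tested. Depth limits Gsdmc, Gsdma and the control values of Gsdmc3, which rest on few fragments.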
